A study of Mus musculus with 6 samples.

Results

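The genes described here encode the protein components of the mitochondrial ribosome, taken as every protein-coding row whose mouse symbol begins with Mrpl or Mrps followed by a number. This gave 78 genes of 47728 in the table, 49 with an Mrpl symbol (large subunit) and 29 with an Mrps symbol (small subunit), and 5 pseudogene rows of the same naming were left out. The frozen cortex samples came from FAD5x mice, a transgenic model of familial Alzheimer's disease whose transgenes are driven by the neuronal Thy1 promoter, and from C57BL/6 mice as Control, with 3 libraries per group. The labels give no treatment other than the genotype and no age or sex. Whether each library is a different animal is not stated; p-values here therefore reflect the spread among these libraries alone, which may be technical. Bulk cortex mixes all cell types, so fewer cells of a type and less RNA per cell cannot be told apart.

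Mitochondrial ribosomes translate the few messenger RNAs encoded by mitochondrial DNA, all of which specify subunits of the respiratory chain and ATP synthase. Their ribosomal RNA is transcribed inside the organelle, whereas all of their proteins are encoded in the nucleus, made in the cytosol and imported. Some of these proteins have counterparts in bacterial ribosomes and others are found only in mitochondria, and inherited defects of several of them cause combined deficiencies of oxidative phosphorylation that often affect the brain.

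Total counts ranged from 17363946 to 24137936 per library. Libraries stood apart in other respects. Control replicate 1 had 3 Xist counts and 3124 counts over 4 Y-linked genes, against 10346 to 22631 for Xist and no more than 9 for the Y-linked genes elsewhere. FAD5x replicate 1 had a summed level of 778 CPM (counts scaled to the library total) for 5 markers of striatal neurons, against 63.1 to 149 CPM in the other 5 libraries. It was also the highest library for 6 oligodendrocyte markers (7430 CPM, against 2845 to 5293 CPM elsewhere, with 1 marker called higher in FAD5x) and for 6 microglial markers (626 CPM, against 229 to 423 CPM). The summed level of 6 neuronal markers of excitatory cells overlapped between groups (4206 to 7679 CPM in FAD5x, 4970 to 7033 CPM in Control), as did that of 6 astrocyte markers (3404 to 5363 and 4502 to 6125 CPM). For 5 markers of meningeal fibroblasts it was 9.06 to 42.8 CPM in FAD5x and 85.8 to 295 CPM in Control, with 1 marker called lower in FAD5x. Summed markers of oligodendrocyte precursors (81.8 to 147 CPM in FAD5x, 165 to 213 CPM in Control) and of mural cells (96.3 to 138 and 148 to 180.1 CPM) also did not overlap. Of the precursor markers 1 was called lower in FAD5x. No marker of these lists was at 0 in every library. Processed pseudogenes took 0.794% to 0.895% of counts in FAD5x and 0.635% to 0.653% in Control. The part of these differences in the results below was not tested, except that results are given without single libraries where that changed them.

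Of the 78 genes 77 passed the filter on low counts. In FAD5x cortex 2 of them rose, Mrps18a and Mrpl23, and 0 fell (edgeR quasi-likelihood test with Benjamini-Hochberg adjustment over 17074 genes, with 0 lower at an unadjusted p under 0.05 and 0 lower by limma-voom and DESeq2). Over all tested genes 1.76% were called higher and 1.39% lower, so 2 of 77 was near the background. The other genes had small estimates that lay mostly above 0. The log2 fold change was above 0 for 69 of 77 genes, against 51.5% of all tested genes, and its median was 0.25 (quartiles 0.12 and 0.34), or 1.19-fold, against 0.015 for all tested genes. At an unadjusted p under 0.05, 15 of 77 were higher and 0 lower, with 11.2% of all tested genes higher and 10.1% lower. In 31 genes every FAD5x library was above every Control library, and in 1, Mrpl3, every FAD5x library was below, against 14.1% and 13.2% of all tested genes. The share above depended on transcript length: it was 34.6% of protein-coding genes below 1000 bases (13 of 24 members), 25.1% from 1000 to 2000 bases (13 of 28), 13.8% from 2000 to 4000 bases (3 of 16) and 5.96% at 4000 bases and longer (2 of 9). Neither call held without FAD5x replicate 1, FAD5x replicate 3 or any one Control library, each of which gave 0 called members. Over all tested genes, 537 were called in either direction with all libraries. Without FAD5x replicate 1 this number was 204, and without FAD5x replicate 3 it was 597. It was 98, 81 and 152 without Control replicates 1, 2 and 3, so far fewer genes of any kind were called there.

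**Figure D1:**
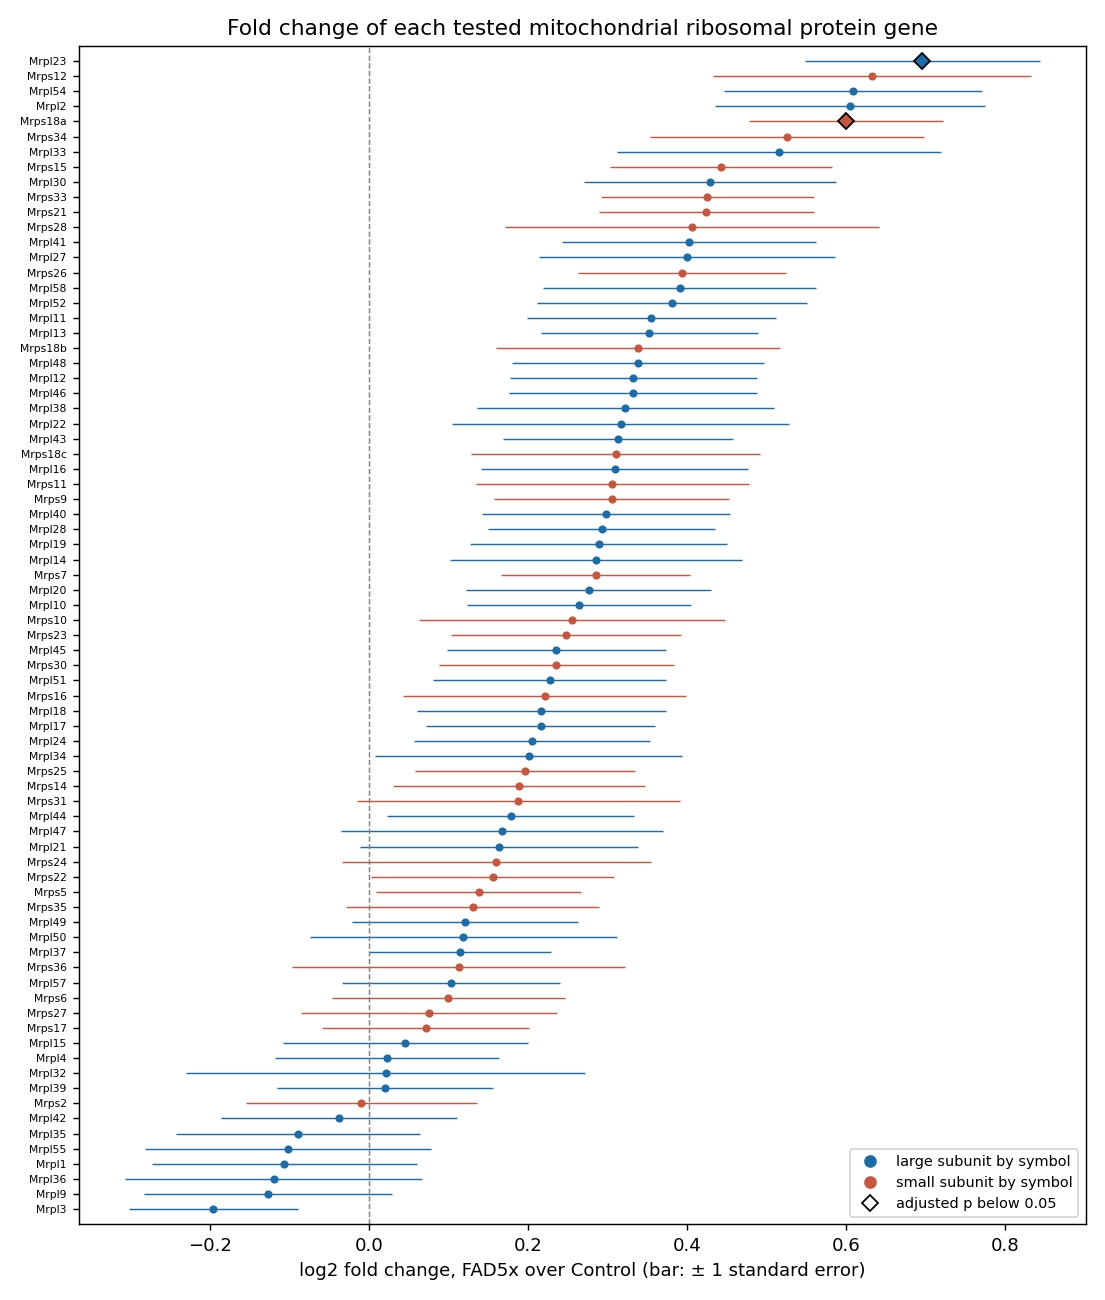
Log2 fold change of FAD5x over Control (horizontal axis, with a bar of 1 standard error on each side) for the 77 tested mitochondrial ribosomal protein genes, ordered by value and coloured by subunit. Most points lie right of 0, from -0.20 for Mrpl3 to 0.70 for Mrpl23, and the outlined diamonds mark the called genes, Mrpl23 and Mrps18a.

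The 120 bases before the annotated start are shown for Mrps18a and Mrpl23, the called genes, and for Mrpl3, the gene whose libraries separated in the other direction. They are RefSeq sequences of build GRCm38.p6, an earlier build than the GRCm39 of the deposited counts, and all are on the plus strand. Capitals mark a complete match to CCGGAAG, the core bound by ETS factors such as GABP, or to GGGCGG, the core bound by SP and KLF factors, on either strand.
Mrps18a, chr17:46110884-46111003: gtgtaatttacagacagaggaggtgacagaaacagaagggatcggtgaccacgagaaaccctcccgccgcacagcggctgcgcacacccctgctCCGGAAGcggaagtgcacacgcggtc
Mrpl23, chr7:142532912-142533031: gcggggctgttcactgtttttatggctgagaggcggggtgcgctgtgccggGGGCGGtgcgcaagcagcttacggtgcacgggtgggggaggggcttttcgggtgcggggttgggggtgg
Mrpl3, chr9:105053148-105053267: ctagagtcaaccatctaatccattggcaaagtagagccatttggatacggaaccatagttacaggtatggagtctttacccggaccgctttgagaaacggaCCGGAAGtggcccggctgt

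The ETS core stood 26 bases before the start of Mrps18a and 19 bases before that of Mrpl3, so that genes with estimates of opposite sign both carried it. Windows of 300 bases, from 250 before to 50 after the start, were found for 69 of the 78 genes. The ETS core CCGGAAG occurred in 26 of these 69 (37.7%), against 12.9% of 17492 protein-coding genes and 9.93% of 27025 genes of any type. GGGCGG occurred in 34 of 69 (49.3%), against 49.2% of protein-coding genes, and TATAAA in 5 of 69 (7.25%), against 14.8%. These motifs were searched on both strands, and none of these strings contains another. Among the genes with a window and a test, the median log2 fold change was 0.31 over 25 genes with CCGGAAG and 0.20 over 43 without it.

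Mrps18a (ENSMUSG00000023967) is one of 3 mammalian relatives of the bacterial protein S18 and, despite its symbol, is known from structures to sit in the large subunit. In replicate order its scaled CPM was 28.5, 32.4 and 31.4 for FAD5x against 20.5, 20.7 and 19.6 for Control. Every FAD5x library was above every Control library, and the distance between the groups was larger than the range within either. Mrps18a rose 1.52-fold (log2 0.60 ± 0.12 SE, n = 3 per group; edgeR adjusted p = 0.0392). With smooth trends of length and GC content taken out of every library the value was 0.35 ± 0.11 and the call was lost (edgeR adjusted p = 0.157). The other relatives were lower in level and did not pass the test. Mrps18b, a small-subunit protein, measured 10.3, 8.29 and 9.35 CPM across FAD5x against 7.21, 7.64 and 7.21 CPM across Control (log2 fold change 0.34 ± 0.18, edgeR adjusted p = 0.321). Mrps18c, the relative that takes the place of S18 itself, measured 8.53, 11.05 and 10.5 CPM across FAD5x against 7.54, 8.37 and 8.33 CPM across Control (log2 fold change 0.31 ± 0.18, edgeR adjusted p = 0.374). In all 3 relatives every FAD5x library was above every Control library. This was also so for 14.1% of all tested genes. In the length classes of the relatives it was so for 34.6% (below 1000 bases) and 25.1% (1000 to 2000 bases) of protein-coding genes. The count of Mrps18b is uncertain, because the processed pseudogene Gm13552, identical to it at 99.8% over 417 bases, held 438 counts against 995 for Mrps18b over the 6 libraries, and the antisense gene Gm16279 overlaps it.

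Mrpl23 (ENSMUSG00000037772) encodes the counterpart of a bacterial protein at the mouth of the tunnel through which the new chain leaves the ribosome. In replicate order its scaled CPM was 21.4, 20.2 and 20.6 for FAD5x against 12.3, 14.6 and 11.5 for Control. The 3 FAD5x libraries lay close together and all above the highest Control library. Mrpl23 rose 1.62-fold (log2 0.70 ± 0.15 SE, n = 3 per group; edgeR adjusted p = 0.0449). With the length and GC trends taken out it was 0.43 ± 0.14 and the call was lost (edgeR adjusted p = 0.163). A processed pseudogene, Mrpl23-ps1, held 36 counts against 2020 for the gene over the 6 libraries. The call of Mrpl23 also ended with FAD5x replicates 1 and 2, whose library names are related, summed into 1 sample, while that of Mrps18a held.

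The remaining 8 of the 10 genes with the smallest p had fold changes of 1.31 to 1.55 and adjusted p of 0.0850 to 0.140. In each of them every FAD5x library was above every Control library, as in 14.1% of all tested genes. Picking genes by their p favours such separation, so it adds no support of its own. In the large subunit, Mrpl54, a mitochondria-specific protein at the base of the stalk that recruits translation factors, measured 12.4, 11.4 and 13.0 CPM across FAD5x against 7.49, 8.26 and 8.39 CPM across Control (1.52-fold). Mrpl2, a counterpart of a bacterial protein close to the peptidyl transferase centre, measured 20.5, 27.3 and 24.7 CPM across FAD5x against 15.4, 18.5 and 13.8 CPM across Control (1.52-fold). Both were called by DESeq2 (adjusted p = 0.0321 for Mrpl54 and 0.0453 for Mrpl2), which called 4.47% of all tested genes higher.

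In the small subunit, Mrps12, whose bacterial counterpart lines the decoding site, measured 19.0, 28.6 and 23.1 CPM across FAD5x against 12.7, 18.3 and 14.5 CPM across Control (1.55-fold). Its FAD5x replicate 1 lay only just above the highest Control library. Mrps15, a counterpart of a bacterial protein that binds ribosomal RNA, measured 23.9, 30.9 and 28.4 CPM across FAD5x against 19.7, 21.2 and 20.2 CPM across Control (1.36-fold). Mrps21, another counterpart of a bacterial protein, measured 21.4, 25.2 and 25.4 CPM across FAD5x against 18.7, 17.1 and 17.9 CPM across Control (1.34-fold). The mitochondria-specific Mrps26 measured 34.9, 44.6 and 38.1 CPM across FAD5x against 29.2, 30.3 and 30.0 CPM across Control (1.31-fold). The Control libraries of these genes lay closer together than the FAD5x libraries, in which replicate 1 was the lowest each time.

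Mrps33 and Mrps34, both mitochondria-specific, have counts that cannot be fully separated from other genes. Mrps33 measured 33.4, 39.0 and 31.2 CPM across FAD5x against 26.4, 23.9 and 26.9 CPM across Control (1.34-fold), and Gm5776, a processed pseudogene identical to it at 99.7% over 321 bases, held 19.8% as many counts. Mrps34 measured 18.5, 26.0 and 19.1 CPM across FAD5x against 15.2, 15.5 and 13.5 CPM across Control (1.44-fold). It shares 504 bases with the antisense gene Mapk8ip3, which held 52627 counts against 2145 for Mrps34 and had a log2 fold change of 0.13, and whether counting used strand is not stated in the labels.

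**Figure D2:**
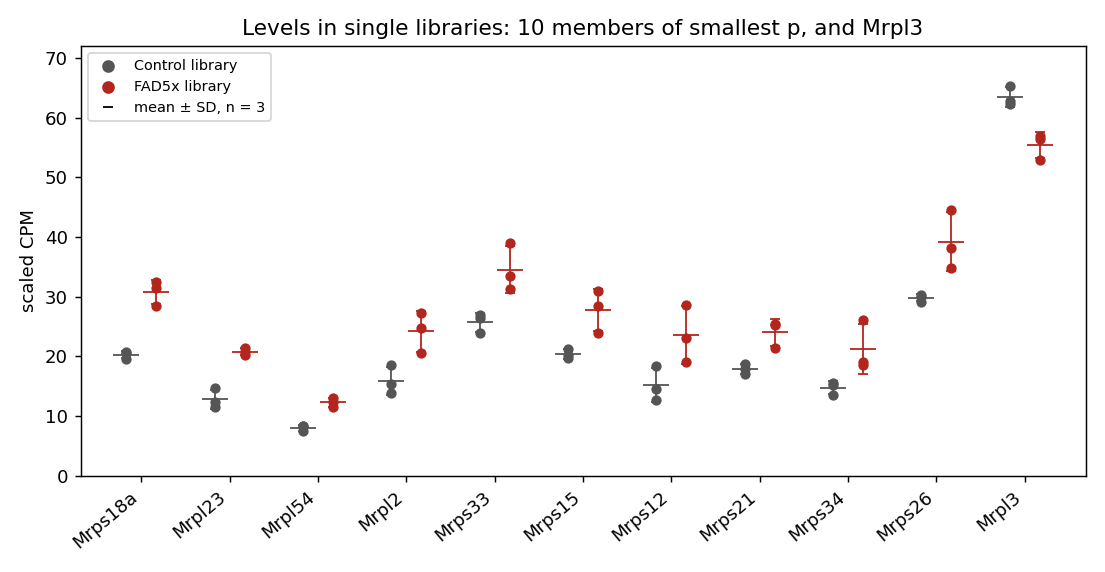
Scaled CPM (vertical axis) in each of the 3 Control and 3 FAD5x libraries for the 10 genes with the smallest p and for Mrpl3, with the mean and SD of each group. The FAD5x points lie above the Control points in the first 10 genes, as in Mrps18a (28.5 to 32.4 against 19.6 to 20.7 CPM), and below them in Mrpl3.

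The 3 genes with the lowest fold changes were all in the large subunit. Mrpl3, a counterpart of a bacterial protein close to the peptidyl transferase centre and a human disease gene, measured 52.9, 56.9 and 56.4 CPM across FAD5x against 62.8, 62.3 and 65.3 CPM across Control. All 3 FAD5x libraries were below all 3 Control libraries, but the difference was small and not called (log2 fold change -0.20 ± 0.11, edgeR adjusted p = 0.335). Mrpl9 (log2 fold change -0.13 ± 0.16) and Mrpl36 (-0.12 ± 0.19) had overlapping groups, with 16.3, 17.6 and 22.4 CPM across FAD5x against 20.1, 19.9 and 21.4 CPM across Control for Mrpl9. In all, 8 of the 77 genes had a log2 fold change below 0, of which 7 were Mrpl genes and 1, Mrps2 (-0.010), was an Mrps gene.

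Levels within the gene set were compared per kilobase of a representative transcript, over all 6 libraries. They ran from 3.04 to 43.0 CPM per kilobase, with a median of 13.1 over the 48 tested Mrpl genes and 12.5 over the 29 Mrps genes. The highest among Mrps genes were Mrps21 (43.0), Mrps18a (28.9) and Mrps33 (27.2 CPM per kilobase), and among Mrpl genes Mrpl30 (37.7), Mrpl33 (37.1) and Mrpl42 (34.4). The lowest were Mrps25 (3.04), Mrps16 (3.84) and Mrps30 (3.97) among Mrps genes and Mrpl47 (3.05), Mrpl32 (3.13) and Mrpl17 (3.14 CPM per kilobase) among Mrpl genes. The level of Mrps25 is uncertain. Its transcript shares 3533 of 6073 bases with the antisense gene Nr2c2, which held 6968 counts against 2184 for Mrps25. The processed pseudogene Gm42933 is identical to it at 98.0% over 2070 bases. Both ends held genes with different fold changes. Mrpl33, a counterpart of a small bacterial protein, was estimated at a log2 fold change of 0.52 ± 0.20 (edgeR adjusted p = 0.195) and Mrpl30 at 0.43 ± 0.16 (edgeR adjusted p = 0.171), whereas Mrpl42, mitochondria-specific, was at -0.038 ± 0.15. At the low end the values were 0.021 for Mrpl32, 0.17 for Mrpl47 and 0.22 for Mrpl17 and Mrps16. Across the 77 genes the log2 fold change and the log2 mean level in CPM had a Pearson r of -0.052.

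Mrpl53 did not pass the filter: it had 0 counts in all 6 libraries. A transcript of the protein-coding gene Gm42688, annotated over the same place on the same strand, contains all 695 bases of the Mrpl53 transcript. It held 41, 24 and 28 counts across FAD5x and 25, 25 and 17 across Control, so the 0 does not measure Mrpl53.

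The large and the small subunit had nearly the same median, 0.25 for both when grouped by symbol. Of 48 Mrpl genes 41 were above 0 and 18 had every FAD5x library above every Control library, and of 29 Mrps genes 28 and 13. Mrpl genes gave 7 and Mrps genes 8 that were higher at an unadjusted edgeR p under 0.05. Over all tested genes 51.5% were above 0, 14.1% had every FAD5x library above every Control library, and 11.2% were higher at that p. Such separation held for 34.6% of protein-coding genes below 1000 bases and 25.1% from 1000 to 2000 bases. Summed over genes, the Mrpl level was 961, 1181 and 1106 CPM for FAD5x against 910.2, 940.0 and 956 CPM for Control, in replicate order. The Mrps sum was 576, 688 and 648 CPM across FAD5x against 511, 544 and 532 CPM across Control. Both sums were higher in every FAD5x library than in any Control library, by a narrow margin in FAD5x replicate 1. The ratio of the Mrpl to the Mrps sum was 1.67, 1.72 and 1.71 for FAD5x against 1.78, 1.73 and 1.80 for Control, so that the ranges did not overlap but lay close together. With Mrps18a and Mrps30 counted as large-subunit proteins, where structures place them, and Mrps36, which is known as a component of a metabolic enzyme complex, left out, the ratio was 1.91, 1.97 and 1.96 for FAD5x against 2.02, 1.95 and 2.03 for Control, and the ranges overlapped. The medians were then 0.25 over 50 large-subunit and 0.25 over 26 small-subunit genes.

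Libraries of the FAD5x group differed among themselves. Relative to the Control mean of each gene, the median over the 77 genes was, in replicate order, 0.080, 0.33 and 0.29 on the log2 scale for FAD5x against -0.031, 0.027 and 0.032 for Control. FAD5x replicate 1 was thus close to the Control libraries, and it was the lowest of the FAD5x libraries in 65 of the 77 genes. In FAD5x replicates 2 and 3, 72 genes each were above the Control mean, against 52 in FAD5x replicate 1. For cytosolic large-subunit ribosomal protein genes the medians were 0.63, 0.57 and 0.80 in the same order, and FAD5x replicate 1 was not the lowest. For complex I subunit genes they were 0.20, 0.43 and 0.43, and for all tested protein-coding genes below 1000 bases 0.18, 0.30 and 0.36, with FAD5x replicate 1 the lowest in both, as for the members. FAD5x replicate 1 is also the library with the highest levels of striatal, oligodendrocyte and microglial markers, whose part in these values was not tested. Without it, 24 of 77 genes were higher at an unadjusted p under 0.05, with a median of 0.30, and 0 were called. Over all tested genes 204 were then called in either direction, in place of 537. The share of all genes under that unadjusted p is not given for this fit, so the 24 cannot be set against it.

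**Figure D3:**
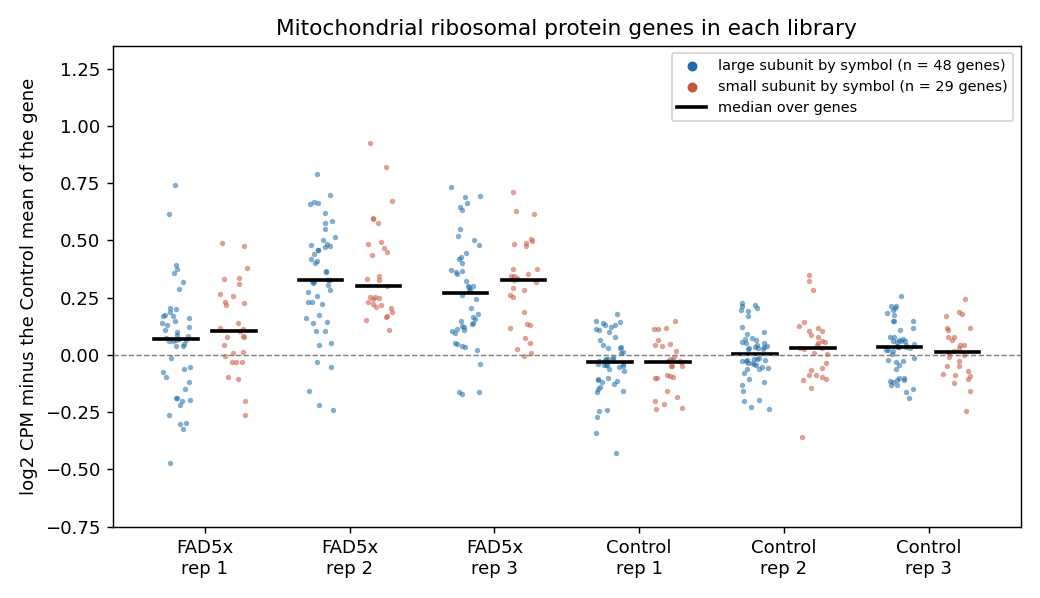
Difference of each gene's log2 CPM from its mean over the Control libraries (vertical axis), in each library, for Mrpl genes (blue) and Mrps genes (red), with the median as a black bar. Medians are near 0 in the Control libraries, 0.068 and 0.11 in FAD5x replicate 1, and between 0.27 and 0.33 in FAD5x replicates 2 and 3.

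By origin, the 46 genes with a bacterial counterpart had a median of 0.26, with 39 above 0, and the 28 tested mitochondria-specific genes one of 0.24, with 27 above 0. By place in the ribosome, the 4 tested stalk genes all had FAD5x libraries above every Control library, with a median of 0.34. The same held for 14.1% of all tested genes and for 34.6% and 25.1% of protein-coding genes below 1000 and from 1000 to 2000 bases, where 3 of the 4 lie. Besides Mrpl54 the stalk genes were Mrpl10, which anchors the stalk (31.9, 39.8 and 31.3 CPM across FAD5x against 27.4, 31.1 and 27.4 CPM across Control), Mrpl11 at its base (22.4, 31.9 and 27.4 against 20.6, 22.4 and 20.9 CPM) and Mrpl12, which forms its flexible part (17.9, 24.5 and 19.7 against 16.6, 16.2 and 16.5 CPM). In Mrpl10 and Mrpl11 the lowest FAD5x library was within 1 CPM of the highest Control library, and none of the 4 genes was called. The 8 genes of the central protuberance had a median of 0.33 with 7 above 0 and 0 called, and the 8 genes of the exit tunnel a median of 0.21 with all 8 above 0 and 1, Mrpl23, called.

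Some members are human disease genes. Of 14 such genes 12 were above 0, 0 were called in either direction (edgeR, with 2 higher and 0 lower at an unadjusted p under 0.05), and their median was 0.20. Those with the smallest p were Mrps34, described above, and Mrps7, with 26.5, 26.1 and 28.0 CPM across FAD5x against 21.3, 22.1 and 22.8 CPM across Control (log2 fold change 0.29 ± 0.12, edgeR adjusted p = 0.218). In Mrps7 every FAD5x library was above every Control library and the groups were tight. Such separation held for 14.1% of all tested genes and 25.1% of protein-coding genes from 1000 to 2000 bases, the length class of Mrps7. Picking a gene by its p favours it.

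Fold changes were higher in shorter transcripts, among the members and among all protein-coding genes. Members had a median length of 1316 bases. Across the 77 genes, which share the same libraries, log2 fold change and log2 length had a Pearson r of -0.41 and a Spearman rho of -0.44, and log2 fold change and GC content an r of 0.45 and a rho of 0.42. The median over all 786 tested protein-coding genes below 1000 bases was 0.29, against 0.39 over the 24 members of that length. From 1000 to 2000 bases the medians were 0.17 over 2923 genes and 0.27 over 28 members, and from 2000 to 4000 bases 0.036 over 5999 genes and 0.14 over 16 members. At 4000 bases and longer they were -0.15 over 4829 genes and 0.20 over 9 members. Members lay above the median of all protein-coding genes in each class, and the shortest classes of both were above the longest. When smooth trends with length and GC content were taken out of every library, the members' median was 0.14 with 60 of 77 above 0, and 0 genes were called. How far library preparation or RNA quality entered this trend was not tested.

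**Figure D4:**
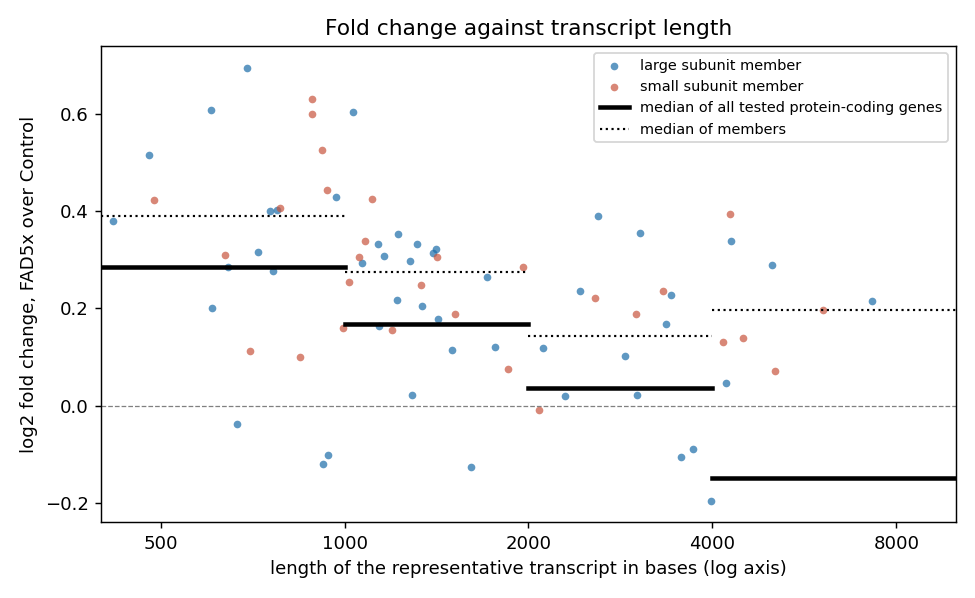
Log2 fold change (vertical axis) against the length of the representative transcript on a log axis, for Mrpl genes (blue) and Mrps genes (red), with the medians of all tested protein-coding genes (solid bars) and of members (dotted bars) in 4 length classes. Solid bars fall from 0.29 below 1000 bases to -0.15 at 4000 bases and longer, and the dotted bar lies above the solid bar in each class.

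Other genes of mitochondrial translation were taken from lists by role. Of 5 mitochondrial ribosomal proteins with other symbols, 0 were called and 4 were above 0, with a median of 0.26. Gadd45gip1, a large-subunit protein, measured 15.5, 18.5 and 17.1 CPM across FAD5x against 13.4, 13.5 and 12.6 CPM across Control (log2 fold change 0.37 ± 0.14, edgeR adjusted p = 0.189). Its groups did not overlap, and 14.1% of all tested genes were likewise above in every FAD5x library. Aurkaip1, a small-subunit protein, had a log2 fold change of 0.26 ± 0.13. Of 28 assembly factors 0 were called (2 higher and 0 lower at an unadjusted p under 0.05), 19 were above 0, and the median was 0.13. The smallest p among them belonged to C1qbp, a matrix protein that binds RNA (0.42 ± 0.12, edgeR adjusted p = 0.0943), and Rbfa, which matures the small subunit (0.42 ± 0.18, 0.219).

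Of 15 translation factors 0 were called (1 higher and 0 lower at an unadjusted p under 0.05), 8 were above 0 and the median was 0.070. Slirp, which stabilises mitochondrial messenger RNA, measured 11.6, 13.5 and 15.1 CPM across FAD5x against 9.69, 7.19 and 8.05 CPM across Control (1.61-fold, edgeR adjusted p = 0.0915). For Gfm2, a ribosome recycling factor, the value was 0.26 ± 0.11 on the log2 scale (edgeR adjusted p = 0.238). The median was 0.019 over 17 mitochondrial aminoacyl-tRNA synthetases, of which Wars2 (0.36 ± 0.16) and Aars2 (0.27 ± 0.12) had the smallest p, and 0.042 over 8 genes of mitochondrial transcription and DNA maintenance, led by Tfb2m (0.19 ± 0.18) and Polrmt, the mitochondrial RNA polymerase (0.11 ± 0.13). By edgeR, 0 genes of either list were called, with 1 of the synthetases and 0 of the transcription genes higher at an unadjusted p under 0.05. Median transcript lengths were 2623 bases for the translation factors, 3336 for the synthetases and 3621.5 for the transcription genes, against 1316 for the members. From 2000 to 4000 bases the median was 0.036 over all protein-coding genes and 0.14 over 16 members. The part of length in the differences between lists was not tested.

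The RNA partners of these proteins overlapped between groups. The small-subunit ribosomal RNA mt-Rnr1 measured 2476, 3433 and 2347 CPM across FAD5x against 1861, 3041 and 2367 CPM across Control, and the large-subunit ribosomal RNA mt-Rnr2 measured 3485, 4242 and 3369 CPM across FAD5x against 2442, 4596 and 3363 CPM across Control. Control replicate 1 was the lowest library for both (log2 fold change 0.18 ± 0.24 and 0.093 ± 0.25). The 13 mitochondrially encoded messenger RNAs had a median of 0.072, with 1, mt-Atp8, called higher. Of 9 nuclear regulators of mitochondrial genes 0 were called and 3 were lower at an unadjusted edgeR p under 0.05, against 10.1% of all tested genes. The list had a median of -0.019 and a median length of 3656 bases. Over all protein-coding genes the median was 0.036 from 2000 to 4000 bases and -0.15 at 4000 bases and longer. Ppargc1a, a coactivator that drives mitochondrial biogenesis, measured 41.1, 44.1 and 46.1 CPM across FAD5x against 75.5, 48.4 and 59.6 CPM across Control (log2 fold change -0.48 ± 0.17, edgeR adjusted p = 0.149), and Pprc1, a relative of it, had -0.35 ± 0.15 (0.223). In Ppargc1a all FAD5x libraries were below all Control libraries, of which replicate 2 was close to them. The same separation held for 13.2% of all tested genes. Of 14 genes taken as measures of mitochondrial content 0 were called, 12 were above 0 and the median was 0.16, with Vdac2, an outer membrane channel (0.30 ± 0.12), and Slc25a4, the ADP/ATP carrier (0.37 ± 0.16), at the smallest p.

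The 37 tested complex I subunit genes had a median of 0.35, with 2 called higher (Ndufa13 and Ndufb8) and 27 with every FAD5x library above every Control library. Cytosolic ribosomal protein genes had medians of 0.64 over 47 large-subunit and 0.66 over 32 small-subunit genes, with 21 and 12 called higher and 1 (Rpl29) and 0 called lower. Of all tested genes 1.76% were called higher and 1.39% lower, and 14.1% had every FAD5x library above every Control library. That last share was 34.6% over protein-coding genes below 1000 bases. The median lengths were 908 bases for complex I genes and 906 and 792.5 bases for the cytosolic large and small subunit. These comparisons share the same libraries, and a difference between the lists was not tested. Near-identical copies can take or lend counts. Of the 78 mitochondrial ribosomal protein genes 19 had a near-identical transcript of another locus. The rule was identity of 95% or more over at least 200 bases that cover 50% of either transcript. There were 20 copy genes with a row in the deposited counts, some of them at 0. Those of Mrps18b and Mrps33 named above held more than 5% of the counts of their gene. The copies of Mrpl21, Mrpl22, Mrps10 and Mrps26 had no row in the deposited counts. Over the 57 tested genes with no such copy or overlapping transcript the median was 0.24, with 50 above 0 and 1, Mrps18a, called higher. In 22 of them every FAD5x library was above every Control library, against the 14.1% of all tested genes given above.

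**Figure D5:**
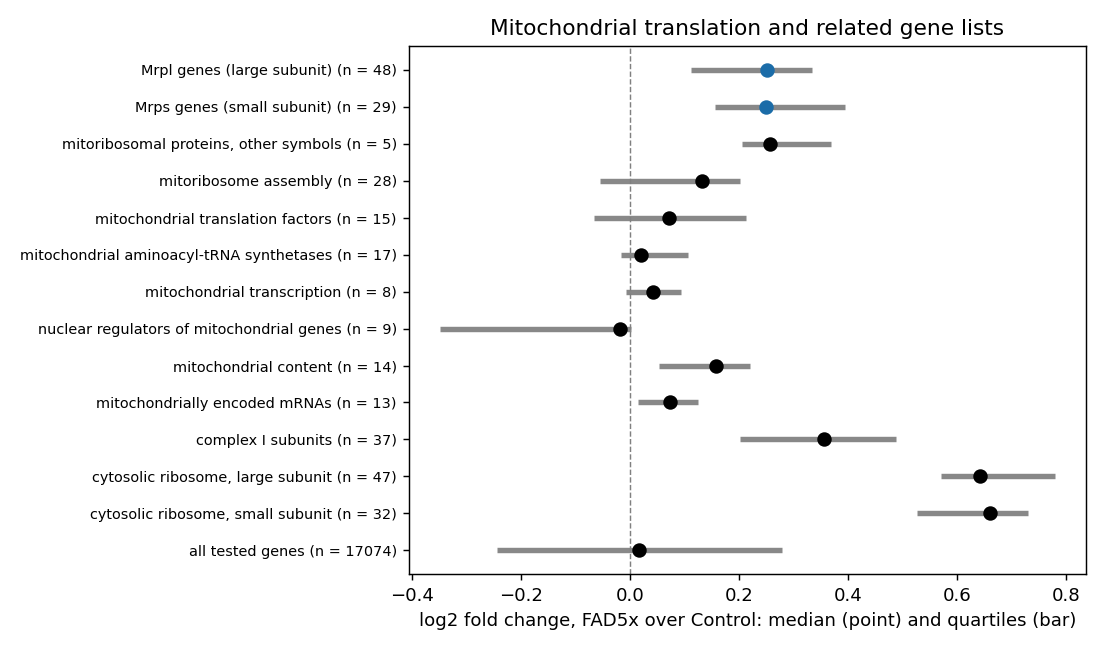
Median log2 fold change (points) and quartiles (bars) of Mrpl and Mrps genes (blue points) and of related lists, with the number of tested genes in each. The Mrpl and Mrps medians of 0.25 lie above those of the mitochondrial translation factors (0.070), below those of the cytosolic ribosomal proteins (0.64 and 0.66), and above the 0.015 of all tested genes. The lists differ in transcript length, with a median of 1316 bases for the members and 2623 bases for the translation factors.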

How the data were processed

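RNA of 3 FAD5x and 3 Control cortex samples was sequenced. The authors deposited raw counts per gene; per the submitters' processing notes the build was GRCm39 and the tools named include STAR 2.7.11b and featureCounts (also cutadapt, limma and edgeR 3.38.4). Strandedness and the counting of multi-mapping reads are not given in the sources used here. Of 47729 lines 1 was dropped for a non-numeric entry. Symbols and transcripts came from GENCODE M21 of build GRCm38, matched by identifier (47309 matched, 419 not); the representative transcript was the APPRIS principal one where marked, then a protein-coding one, the longest among equals.

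The test was that of edgeR 4.0.16 under R 4.3.3 (quasi-likelihood F-test, robust prior, filterByExpr, trimmed mean of M values, two-sided, genotype only), with genes called at a Benjamini-Hochberg adjusted p below 0.05 over 17074 genes. CPM were computed from the deposited counts, scaled by the normalisation factors except for marker sums. Tested genes held 99.8% to 99.9% of the counts. Members and lists were chosen with earlier results of these data known. Named are called members, the 10 of smallest p, the 3 of highest and lowest level per length in each subunit and of largest fold change either way, the stalk and S18 genes, 4 disease genes, and the called or 2 leading genes of each list; others named were chosen after their values were seen. Of 162 list entries 2 were not matched. Alternatives used limma 3.58.1 (voom), DESeq2 1.42.0, other scalings and filters, a replicate block, length and GC trends taken out, and libraries left out or summed. The steps were tested on simulated counts. Libraries of a group differed by a chi-square of 18.2 to 56.8 per degree of freedom and were counted separately.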

Additional observations from a re-analysis of the deposited data

How the results depend on the processing

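The number of called genes, 2 here, was 4 with DESeq2, 1 with FAD5x replicates 1 and 2 summed, and 0 with library totals only, with the replicate block, with length and GC trends taken out, and with both FAD5x replicate 1 and Control replicate 1 left out, an alternative chosen after seeing the data. It ranged from 0 to 2 on leaving out single libraries, and was 2 only without FAD5x replicate 2. The median log2 fold change stayed above 0 under all 19 alternatives, ranging from 0.20 to 0.30 without single libraries, and was 0.14 with length and GC trends taken out, where 9 genes in place of 15 were higher at an unadjusted p under 0.05. That number ranged from 11 to 24 without single libraries. The share of all genes under that unadjusted p is not given for these fits, so the numbers cannot be set against it. The large median minus the small median, 0.0020 here, was -0.053 with length and GC trends taken out, -0.059 to 0.031 without single libraries and 0.066 without FAD5x replicate 1 and Control replicate 1. The direction of Mrpl32 reversed with limma-voom (-0.046), with the replicate block (-0.017), without FAD5x replicate 3 (-0.24) and without Control replicate 2 (-0.058), with a range of -0.24 to 0.22 without single libraries, and that of Mrpl42 without FAD5x replicate 1 (0.047), without Control replicate 1 (0.021) and without both (0.11), with a range of -0.12 to 0.047. The cause of these changes was not tested. Of the 28 named genes, Mrps18a lost its call in 9 and Mrpl23 in 10 alternatives.

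The labels number the replicates 1 to 3 in both groups. Same-numbered libraries did not deviate together (correlations of -0.043, -0.093 and -0.31 over all tested genes), and those of different number had correlations of -0.21 to 0.30. With 3 libraries per group such values cannot show whether the samples were paired, and the main test used no pairing. With the replicate block 72 genes were called over all, in place of 537. Depth limits single genes: tested members had 5.62 to 59.4 CPM. Mrpl53 had no count, which does not measure it, because a transcript of Gm42688 contains its whole transcript.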

Other observations

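Many of these genes start next to another gene. In the annotation 33 of the 78 had a protein-coding gene on the opposite strand with its start within 1000 bases, and in 1 such pair, Mrpl46 and Mrps11, both genes are members (log2 fold changes of 0.33 and 0.31, neither called by edgeR). The other 28 partners that were tested had a median of 0.16 with 21 above 0, 2 called higher and 1 called lower, against 1.76% and 1.39% of all tested genes. The 33 members with such a neighbour had a median of 0.29 and the 44 tested members without one 0.23.

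Values of single pairs differed, and these pairs were chosen after their values were seen. Mrpl36 had a log2 fold change of -0.12 and its neighbour Ndufs6, a complex I subunit whose start is 29 bases away, 0.58 ± 0.14 (edgeR adjusted p = 0.0661). Mrpl49 had 0.12 and its neighbour Fau, a cytosolic ribosomal protein gene at 59 bases, 0.88 ± 0.15 (adjusted p = 0.0220). Mrpl51 had 0.23 and its neighbour Ncapd2, a condensin subunit at 100 bases, -0.70 ± 0.13 (adjusted p = 0.0261). Mrpl44 had 0.18 and its neighbour Wdfy1 0.82 ± 0.13 (adjusted p = 0.0160). Mrps12 had 0.63 and its neighbour Sars2, the mitochondrial seryl-tRNA synthetase, 0.11 ± 0.18. In 15 of the 33 members the gene bodies overlap the neighbour, so reads there cannot be told apart if strand was not used, and over the 62 tested members without such an overlap the median was 0.24.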
